A study of Mus musculus with 8 samples.

Results

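Freshly isolated wild-type mouse aorta was compared with wild-type aortic smooth muscle cells that had been given an adenovirus carrying Myocd, the gene for myocardin. The 3 arrays of this comparison were taken by their sample labels from the 8 arrays of the series, with 1 array of aorta and 2 arrays of Myocd cells. The Myocd cells had been cultured to passage 3 and were harvested 3 days after transduction at a multiplicity of infection of 100. The remaining 5 arrays held RNA from wild-type cells with an empty adenovirus (2 arrays), Srf knockout cells that also carried the empty virus (2 arrays) and freshly isolated wild-type liver (1 array). All 6 cultured samples had thus been through serum culture and adenovirus, which the aorta, as a fresh tissue, had not; the label of the aorta repeats the culture and virus text, but its tissue field names fresh tissue. Strain, sex and age of the mice, how many aortas made up the aortic RNA, and how Srf was removed are not given in the sources used here. The labels also do not say whether the Myocd arrays came from separate cultures, so the p-values rest on a spread between samples that could be technical only. The comparison asks how far cells driven by myocardin still differ from the intact vessel.

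The wall of the aorta holds an endothelial lining, layers of smooth muscle between elastic sheets, and an outer adventitia with fibroblasts, nerves, small vessels and adjoining fat. Smooth muscle cells placed in culture divide and lose much of their contractile gene programme. Myocardin is a coactivator that binds serum response factor (SRF), which in turn binds CArG elements, and together they switch on genes of smooth muscle contraction. A whole aorta therefore differs from a Myocd-transduced culture in its cell types, its matrix, its growth state and its exposure to virus at the same time.

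The arrays were one-colour Cy3 arrays with probes for long non-coding RNAs and mRNAs. A level is the log2 processed intensity of a probe minus the 75th percentile of its array, so a difference of 1 between 2 arrays is a change of 2-fold. The 75th percentile of intensity was 364 on the aorta array against 485 and 466 on the Myocd arrays, and no spot was saturated. Of 60930 probes, 68.9% were well above background on the aorta array and 68.3% and 68.2% on the Myocd arrays, so detection was alike on the 3 arrays. All 3 lay on slide 2 with the liver array, whereas slide 1 held the 4 empty-virus arrays. Gene names could be given to 15 probes through their RefSeq accessions, and control spots name both ends of Gapdh and Pgk1. No other probe carries a gene name, so none of the 9 lists of markers for smooth muscle, endothelium, fibroblasts, fat, blood and other cells had an identified member, and neither the tissue label nor Srf and Myocd themselves were checked against a probe. In bulk RNA of this kind, fewer cells of a type and less RNA per cell cannot be told apart.

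Aorta and Myocd cells differed across a large share of the array. Of the 44612 probes well above background in aorta or on both Myocd arrays, 7392 (16.6%) lay at least 4-fold from both Myocd arrays in the same direction. The aorta was higher at 3969 of them (8.9%) and lower at 3423 (7.67%). The Myocd arrays themselves were at least 4-fold apart at 83 probes (0.186%), and their median absolute difference was 0.13 on the log2 scale. The count has no test, because the aorta has 1 array. A limma fit over 7 arrays, which assumes that the lone aorta array varies like the cultured groups, called 25249 probes (56.6%) at a Benjamini-Hochberg adjusted p under 0.05. Of these, 13479 (30.2%) were higher in aorta and 11770 (26.4%) lower. The balance of directions rests on the scaling. With each array centred on its median in place of its 75th percentile, 2980 probes were at least 4-fold higher and 4771 lower, so that 38.4% of them were higher against 53.7% before. The limma calls then numbered 9662 higher and 15765 lower, which put 38.0% of them on the higher side against 53.4%. The median difference over all tested probes was 0.11 with the main scaling and ranged from -0.27 to 0.17 over the 4 others.

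The 2 directions had different shapes. At 8-fold, 1914 probes were higher in aorta and 1247 lower. At 64-fold the counts were 357 and 99, and at 256-fold they were 120 and 23. With this scaling, more probes were higher than lower at each of these folds. The direction also moved with brightness. Among the dimmest of 5 equal groups of tested probes, ranked by mean level over the 3 arrays, 11.6% were at least 4-fold higher in aorta and 0.258% lower. In the brightest group the shares were 4.79% and 12.6%. A probe whose Myocd level is within 4-fold of the signal floor cannot be counted as lower in aorta by this rule. The ranking mean also holds 1 aorta array and 2 Myocd arrays. It thereby moves aorta-high probes toward the dim groups and aorta-low probes toward the bright ones. How much of the trend comes from this ranking was not tested.

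**Figure D1:**
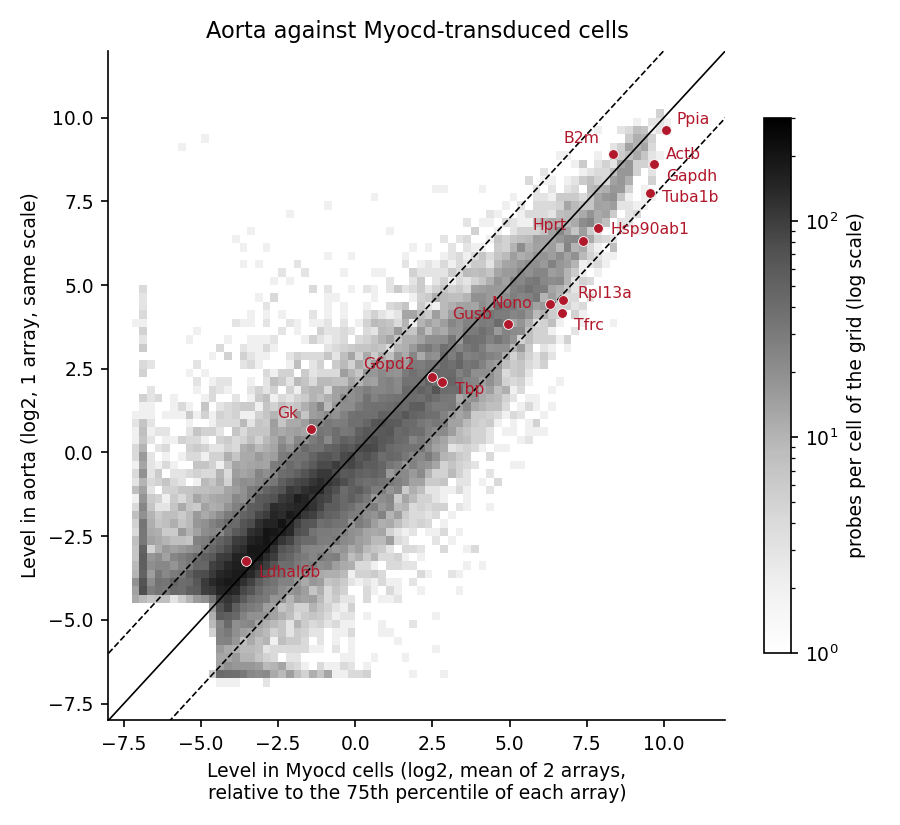
Level of each of the 44612 tested probes in aorta (vertical axis, log2, 1 array) against its mean level in Myocd cells (horizontal axis, log2, 2 arrays); grey shows the number of probes per cell of a grid on a log scale, the solid line is equality, the dashed lines are 4-fold, and red points are the 15 identified genes. The narrow bands at the left and lower edges are dim probes, drawn at their measured values and not at the bounds used for counting, and 12 of the 15 genes lie below the line of equality.

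Most of these probes were measured on both sides. Of the tested probes, 37372 (83.8%) were well above background on all 3 arrays, and among these the direction was close to even, with 2620 at least 4-fold higher in aorta and 2923 lower. A further 3170 probes were well above background in aorta and on neither Myocd array, and 1086 of them were at least 4-fold higher by their bound. For such probes the aortic level was set against the lowest level that counts as well above background, so a fold is a lower bound, and the largest was at least 17700-fold. In the other direction, 2608 probes were well above background on both Myocd arrays and not in aorta. At least 4-fold lower by their bound were 500 of these, the largest at least 740-fold. The counts of 3170 and 2608 probes follow unlike rules. The first asks for a signal on 1 array and none on 2, and the second for a signal on 2 arrays and none on 1. Their gap therefore does not show which side held more RNAs that the other lacked.

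The probes that were low in Myocd cells were also low in wild-type cells with the empty virus. Over the 3969 aorta-high probes, the median level was 0.56 in aorta, -3.32 and -3.39 on the Myocd arrays and -3.30 and -3.23 on the empty-virus wild-type arrays. It was -2.39 and -2.48 on the Srf knockout arrays and -0.59 in liver. Over the 3423 aorta-low probes the median was -1.59 in aorta, 1.64 on both Myocd arrays, 1.57 and 1.36 on the wild-type arrays, 0.73 and 0.94 on the knockout arrays and -2.82 in liver. In both sets the 2 wild-type medians lay within 0.28 of the Myocd medians, while the knockout medians lay toward the aorta. The aorta and Myocd medians are given by the choice of the probes, in which the wild-type, knockout and liver arrays had no part. A choice by wide gaps on the Myocd arrays favours smaller gaps on arrays outside it. The wild-type and knockout arrays also lay on the other slide. The parts of the choice and of the slide in the knockout medians were not tested.

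The distance from the aorta array was then taken over the same 44612 probes for every other array. The median absolute log2 difference from aorta was 0.86 and 0.83 for the Myocd arrays and 0.93 and 0.92 for the empty-virus wild-type arrays. For the Srf knockout arrays it was 0.73 and 0.75, and for liver 1.08. By this measure the order ran from knockout through Myocd and wild-type cells to liver. The cultured groups kept that order under 5 scalings, of which quantile normalization and the authors' table are not independent. They also kept it over the probes well above background on all 8 arrays. The 44612 probes entered through the aorta or both Myocd arrays, so probes above background on other arrays only were left out. The filter on all 8 arrays drops such probes too. The part of this choice of probes in the order was not tested. The shares of probes at least 4-fold from aorta were 17.8% and 18.2% on the Myocd arrays, 20.3% and 18.4% on the wild-type arrays, 13.0% and 14.1% on the knockout arrays and 23.6% in liver. Here the second Myocd array and the second wild-type array were nearly level, and with quantile normalization (18.3% against 17.3%), with the authors' table (17.8% against 16.8%) and after normexp background correction (10.9% against 10.8%) that Myocd array was the farther of the pair. With the main scaling, arrays of 1 group differed by at most 0.03 in this median distance, and the Myocd and wild-type values did not overlap. With quantile normalization the wild-type arrays read 0.86 and 0.80 and the Myocd arrays 0.79 and 0.80, and the wild-type arrays lay farther apart (0.06) than the group means of 0.83 and 0.79, so the order of these groups there was within the spread of replicates. A comparison of 2 arrays with 2 was not tested. All distances share 1 aorta array, and the 4 empty-virus arrays were on the other slide, so that slide and group cannot be told apart for those groups. The liver array was the dimmest of the 8, with a 75th percentile of 166 and 62.2% of probes well above background. The part of this dimness in the liver distance was not tested.

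**Figure D2:**
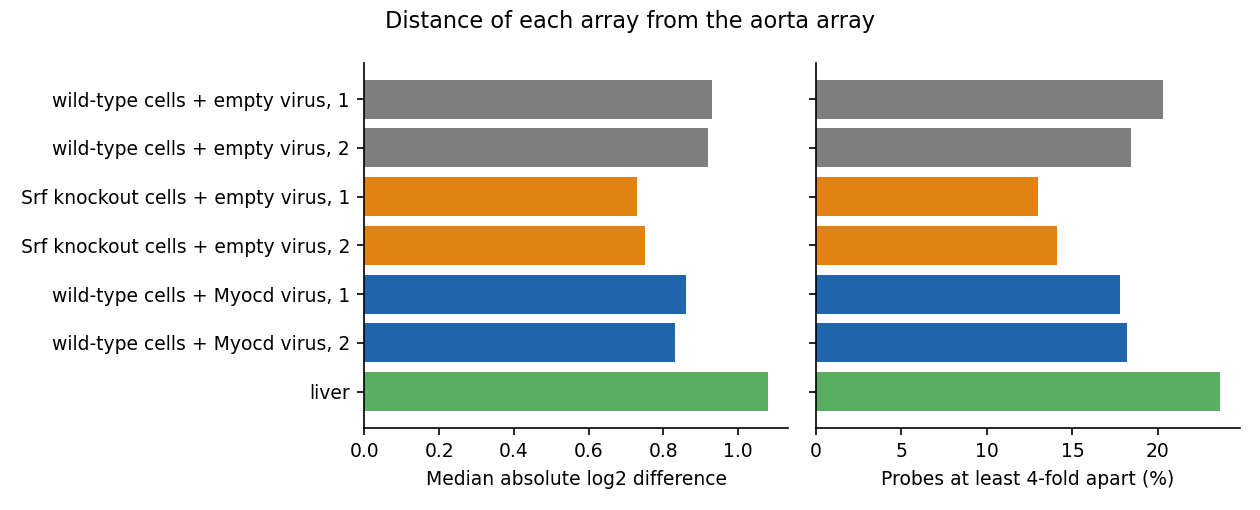
Distance of each of the 7 other arrays from the aorta array over 44612 probes, as the median absolute log2 difference (left) and as the percentage of probes at least 4-fold apart (right); each bar is 1 array, so there is no error bar. The Srf knockout arrays have the shortest bars (0.73 and 0.75), the Myocd arrays lie at 0.86 and 0.83, and liver has the longest bar at 1.08.

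Sets of probes chosen without the Myocd arrays were also read on them, a description added after the first results were seen. The first empty-virus wild-type array had 4975 probes at least 4-fold below the aorta. Of these, 74.4% and 74.3% were at least 4-fold below it on the Myocd arrays as well. Of its 4130 probes at least 4-fold above the aorta, 65.0% and 66.9% were so on the Myocd arrays. Chosen with the second wild-type array in its place, the aorta-high set of 4656 probes gave 79.0% and 78.2%, and the aorta-low set of 3560 probes gave 73.9% and 73.4%. Most of the 4-fold gaps between a wild-type culture and the aorta array were thus found in the Myocd cells too. The same aorta array served for the choice and for the reading, so a deviant aortic value would count as a gap in both. The share on the left-out wild-type array was 74.3% to 89.7%, but that array shares group and slide with the one used to choose, which favours it, so these shares do not measure what the Myocd virus changed.

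The identified genes are mostly housekeeping genes that serve as references on expression arrays, and 12 of the 15 were lower in aorta than on both Myocd arrays. limma called 10 of the 15 lower and 1 higher, and 4 were not called. Over all tested probes limma called 26.4% lower and 30.2% higher. In the brightest of the 5 level groups limma called 45.2% lower and 16.6% higher. Among the 34435 probes at or above the lowest Myocd level of these genes (-3.54, Ldhal6b) it called 32.4% lower and 24.1% higher. Both groups favour probes lower in aorta by their making. The ranking mean holds 2 Myocd arrays and 1 aorta array, and the second cut used the Myocd level alone. Neither group is therefore a matched background for these genes. The median difference was -1.05 over the 15 genes, against 0.11 over all tested probes and -0.12 over those 34435. By the 4-fold rule 3 of the 15 (20.0%) passed, namely Gk, Rpl13a and Tfrc, against 16.6% of all tested probes. Each gene had up to 20 spots on an array, with a spot SD from 0.028 to 0.25 on the log2 scale, and all 15 were well above background on all 8 arrays. These spots are repeats within an array and not biological replicates. Several of these genes have close copies in the genome, and how far the probes tell them apart was not tested.

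Tfrc, Rpl13a and Nono had the widest gaps among the genes lower in aorta. Tfrc, the transferrin receptor that takes iron into dividing cells, had levels of 6.71 and 6.67 on the Myocd arrays and 4.16 in aorta. It was the gene farthest below the Myocd cells, 5.77-fold lower in aorta with a log2 difference of -2.53 (limma SE 0.26, adjusted p = 0.000625). In Srf knockout cells Tfrc stood at 5.14 on both arrays, between the aorta and the Myocd cells. Rpl13a, a protein of the large ribosomal subunit, had levels of 6.80 and 6.65 in Myocd cells and 4.56 in aorta, a 4.47-fold lower level (limma SE 0.21, adjusted p = 0.00049). Nono, an RNA-binding protein of nuclear paraspeckles, read 6.35 and 6.29 against 4.45 and was 3.66-fold lower (limma SE 0.17, adjusted p = 0.000376). For these 3 genes the aorta also lay below all 4 empty-virus arrays.

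Actb, Tuba1b and Hsp90ab1 were called lower in aorta as well. Actb, the cytoplasmic β-actin and the only identified gene from the list of cytoskeletal SRF targets, had levels of 9.67 and 9.65 in Myocd cells and 8.63 in aorta. It was 2.04-fold lower in aorta (log2 difference -1.03, limma SE 0.23, adjusted p = 0.0109). On the wild-type arrays Actb read 9.18 and 9.60 and on the knockout arrays 9.01 and 8.84, so the aorta lay below every culture and nearest to the knockout cells. Tuba1b, an α-tubulin, had levels of 9.55 and 9.52 against 7.74 in aorta, 3.47-fold lower (limma SE 0.25, adjusted p = 0.00181). Hsp90ab1, a constitutive chaperone of the HSP90 family, read 7.90 and 7.83 against 6.71, 2.23-fold lower (limma SE 0.17, adjusted p = 0.00233). For both of these genes the aortic level also lay below all 4 empty-virus arrays.

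Gk, glycerol kinase, which feeds glycerol into lipid and energy metabolism, was the one identified gene called higher in aorta. Its levels were -1.47 and -1.41 on the Myocd arrays and 0.71 in aorta, a 4.44-fold higher level (limma SE 0.18, adjusted p = 0.000287). The 4 empty-virus arrays lay between -2.21 and -2.02 and liver at 1.73, so both tissues lay above every culture. The next 3 genes were called lower. Hprt, an enzyme of purine salvage, read 7.42 and 7.34 in Myocd cells and 6.33 in aorta, 2.07-fold lower (limma SE 0.19, adjusted p = 0.00495). Gusb, the lysosomal β-glucuronidase, read 5.05 and 4.87 against 3.85, 2.15-fold lower (limma SE 0.18, adjusted p = 0.00336). Tbp, the TATA-box binding protein of basal transcription, read 2.86 and 2.78 against 2.12, 1.63-fold lower (limma SE 0.16, adjusted p = 0.0134), and this call was lost without either Myocd array (adjusted p = 0.0712 and 0.0503) and after quantile normalization (0.056).

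G6pd2 was the gene at which the aorta and the Myocd cells came closest while the other cultures stood apart. It encodes a glucose-6-phosphate dehydrogenase, the enzyme that opens the pentose phosphate pathway, and is a close copy of the X-linked gene. Its levels were 2.52 and 2.43 on the Myocd arrays and 2.25 in aorta, a difference of -0.23 that limma did not call (SE 0.17, adjusted p = 0.307). Wild-type cells with the empty virus read 4.21 and 4.06 and knockout cells 5.06 and 4.95, all above the aorta and the Myocd cells. The aorta and Myocd arrays shared slide 2 and these other cultures lay on slide 1. Slide and group therefore cannot be told apart for this gap. Ppia, a peptidyl-prolyl isomerase (cyclophilin A), read 10.07 and 10.06 in Myocd cells and 9.62 in aorta (difference -0.45, limma SE 0.20, adjusted p = 0.111). B2m, the light chain of class I histocompatibility molecules, read 8.32 and 8.41 against 8.93 (difference 0.56, limma SE 0.22, adjusted p = 0.0755). Ldhal6b, a lactate dehydrogenase-like gene, read -3.58 and -3.51 against -3.23 (difference 0.31, limma SE 0.17, adjusted p = 0.176). For B2m, Ppia and G6pd2 the side of the threshold turned on the scaling or on the arrays in the fit. B2m passed in 4 of 12 distinct alternatives, Ppia in 3 and G6pd2 in 1. The sign turned for G6pd2 with quantile normalization (0.05) and for Ldhal6b with quantile normalization (-0.09) and median scaling (-0.07).

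**Figure D3:**
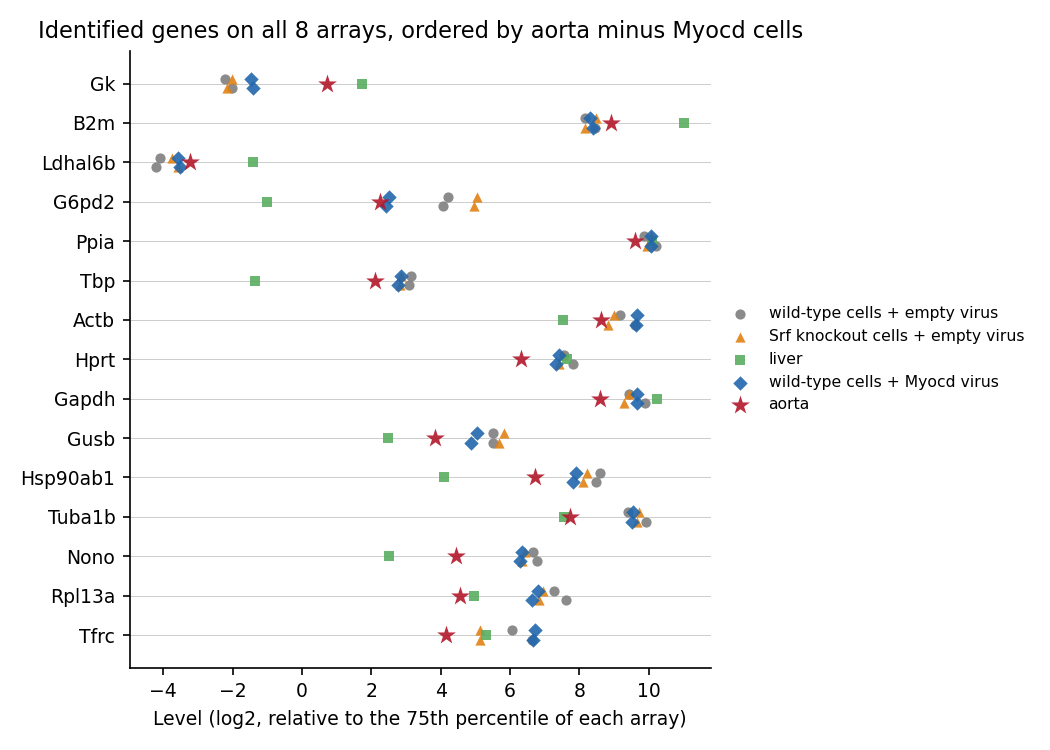
Levels of the 15 identified genes (log2, relative to the 75th percentile of each array) on all 8 arrays, ordered from the gene most above the Myocd cells in aorta (Gk) to the one farthest below (Tfrc); each symbol is 1 array. The aorta star lies left of both Myocd diamonds for 12 genes, and for G6pd2 the aorta and Myocd symbols lie together near 2.25 to 2.52 while the other cultures lie from 4.06 to 5.06.

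Gapdh and Pgk1, a pair of enzymes from the energy-yielding steps of glycolysis, were also lower in aorta, and both have control spots at each end of the transcript. The Gapdh probe read 9.68 and 9.66 in Myocd cells and 8.61 in aorta, 2.09-fold lower (limma SE 0.24, adjusted p = 0.0117). The 10 control spots at its 5′ end averaged 9.84 on both Myocd arrays and 8.18 in aorta, 3.15-fold lower. At its 3′ end they averaged 9.37 and 9.28 against 7.83, 2.83-fold lower. All 3 Gapdh sequences thus gave a lower level in aorta, by 2.09- to 3.15-fold. The Pgk1 control spots at the 3′ end averaged 8.80 and 8.75 in Myocd cells and 6.69 in aorta, 4.24-fold lower. At the 5′ end they averaged 5.64 and 5.60 against 2.09, 11.6-fold lower. The size of the Pgk1 difference therefore depended on which end was read. The 5′ spots of Pgk1 lay below its 3′ spots, with a 5′ minus 3′ difference of -3.16 and -3.15 on the Myocd arrays, -4.60 in aorta and -3.91 to -3.09 on the 4 empty-virus arrays. For Gapdh the 5′ spots lay above the 3′ spots by 0.47 and 0.56 on the Myocd arrays and by 0.36 in aorta. On the liver array, the other fresh tissue, the 5′ minus 3′ difference was -1.88 for Gapdh and -11.33 for Pgk1. There 0 of the 10 Pgk1 5′ spots were well above background. Such a gap can move with RNA quality, and its part in the difference between aorta and Myocd cells was not tested. The control spots were outside the limma fit.

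**Figure D4:**
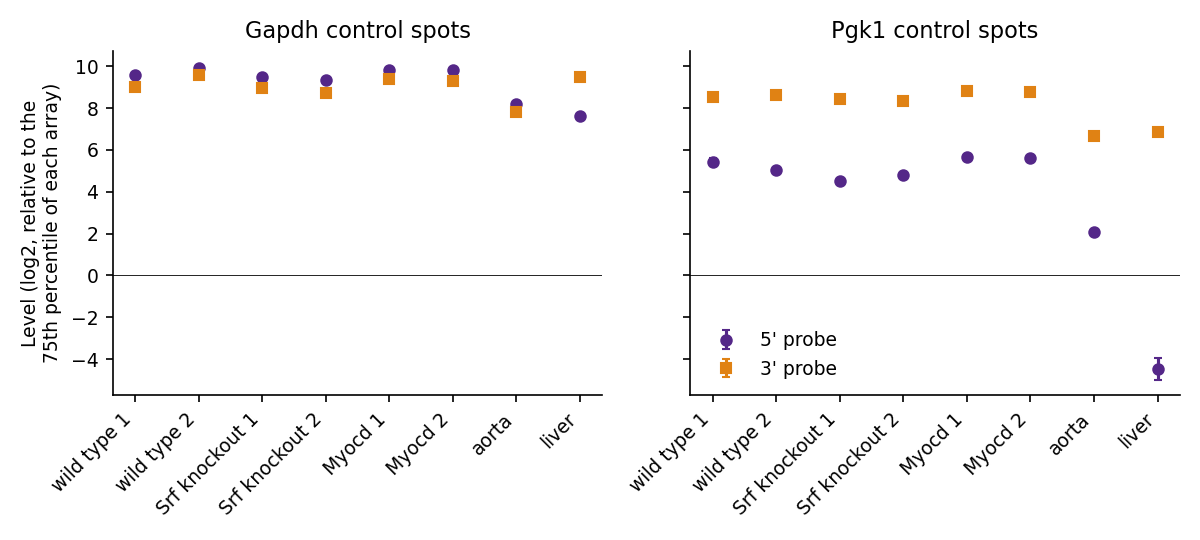
Levels of the Gapdh (left) and Pgk1 (right) control spots (log2, relative to the 75th percentile of each array) at the 5′ end (circles) and the 3′ end (squares) on all 8 arrays; points are means of 10 spots on 1 array and bars their SD, often smaller than the symbol. The aorta is lower than all 6 cultures at both ends of both genes, and its 5′ minus 3′ difference for Pgk1 is -4.60 against -3.16 and -3.15 on the Myocd arrays.

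The promoters of this pair are shown because both genes belong to glycolysis and both were lower in aorta. Being lower does not set the pair apart, since 12 of the 15 identified genes, Gapdh among them, were lower. In the RefSeq table of mouse promoters (GRCm38.p6), the Gapdh window of 300 bases is chr6:125165724-125166023 on the minus strand and the Pgk1 window is chrX:106186850-106187149 on the plus strand. Capitals mark the letters ACGTG on either strand, the core of the element bound by hypoxia-inducible factors.
Gapdh: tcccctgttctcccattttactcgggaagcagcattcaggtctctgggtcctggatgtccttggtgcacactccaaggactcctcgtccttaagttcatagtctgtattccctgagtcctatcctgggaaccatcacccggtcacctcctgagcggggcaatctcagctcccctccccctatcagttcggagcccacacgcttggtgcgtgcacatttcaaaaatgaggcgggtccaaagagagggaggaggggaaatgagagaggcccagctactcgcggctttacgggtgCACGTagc
Pgk1: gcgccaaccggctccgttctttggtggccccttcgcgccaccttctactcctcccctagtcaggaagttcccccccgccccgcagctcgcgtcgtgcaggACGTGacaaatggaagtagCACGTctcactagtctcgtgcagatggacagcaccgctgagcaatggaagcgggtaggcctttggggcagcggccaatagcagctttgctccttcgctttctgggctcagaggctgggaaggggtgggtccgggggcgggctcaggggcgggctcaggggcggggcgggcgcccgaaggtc
Gapdh holds 1 such match and Pgk1 holds 2. The same letters occur in 19.6% of all 32851 promoter windows of this length. Of the 16 genes (the 15 and Pgk1), 14 had an entry in the table, and 6 of the 14 hold the letters; they include Gk, Rpl13a and Tfrc as well as Gapdh, Pgk1 and G6pd2, that is, genes on both sides of the comparison. Actb and Hsp90ab1 had no entry, so their promoters were not read. An exact CArG box, the element read by SRF, is in none of the 15 windows of the 14 genes and in 1.63% of all windows. A match describes the sequence and does not show that a factor binds there.

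Among the probes without a gene name, the largest gaps were far wider than those of the identified genes. The 4 given here had the largest differences, 2 in each direction, of the probes measured above background on both sides; probes at background on 1 side are left to the bounds above. The probe ASMM10P012606 read -4.62 and -4.13 on the Myocd arrays and 8.14 in aorta, a difference of 12.51 (limma SE 0.30, adjusted p = 1.84e-05). It read 6.81 in liver, about 0 on the knockout arrays (0.13 and -0.06), and -4.54 and -4.07 on the wild-type arrays. The probe ASMM10P040651 read -3.42 and -3.46 in Myocd cells and 8.96 in aorta, a difference of 12.40 (limma SE 0.22, adjusted p = 1.74e-05). It stood at -2.31 in liver and between -4.98 and -3.93 on the empty-virus arrays, so the high level was seen on the aorta array only among these 8. In the other direction, ASMM10P026145 read 8.51 and 8.48 in Myocd cells and -3.81 in aorta, a difference of -12.31 (limma SE 0.22, adjusted p = 1.74e-05). Wild-type and knockout cells with the empty virus gave -2.70 to -2.29 for it, above the aorta but far below the 2 Myocd arrays. By contrast, ASMM10P049796 was high in every culture, at 5.68 and 5.47 with Myocd and 5.60 to 6.48 with the empty virus, and at -4.16 in aorta, a difference of -9.74 (limma SE 0.35, adjusted p = 2.73e-05). On the 4 empty-virus arrays, too, the levels of all 4 probes lay on the same side of the aorta as on the Myocd arrays.

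Some probes have identifiers that mark long intergenic non-coding RNAs (lincRNAs), transcripts from between protein-coding genes that are often scarce and tied to a cell type. These probes were mostly within 4-fold between aorta and Myocd cells, as were tested probes at large. Of the 451 tested humanlincRNA probes, 23 were at least 4-fold higher in aorta and 3 lower, together 5.76% against 16.6% of all tested probes. Of 277 mouselincRNA probes, 14 were higher and 1 lower, together 5.42%. Of 47 MM9LINCRNAEXON probes, 3 were higher and 1 lower. The ASMM10UP class, whose meaning the files do not give, had 20 higher and 16 lower of 391. In the humanlincRNA and mouselincRNA classes the aorta was the higher side at 37 of 41 such probes. That side held 53.7% of all probes at least 4-fold apart, but 97.8% in the dimmest and 69.1% in the next of the 5 level groups. More were higher than lower in both classes under all 5 scalings, whereas ASMM10UP turned to 15 higher and 26 lower with median scaling. limma called 33.5% of humanlincRNA probes higher and 3.33% lower, and 26.4% of mouselincRNA probes higher and 5.05% lower, against 30.2% and 26.4% of all tested probes. These probes were dim: 72.1% and 71.5% of them lay in the lower 2 of the 5 level groups, where limma called 41.2% and 32.8% of all tested probes higher and 12.5% and 14.4% lower. The ranking mean behind these level groups itself places aorta-high probes lower, as given above. By the 4-fold rule, 11.6% and 9.37% of all tested probes in those 2 groups were higher in aorta and 0.258% and 4.19% lower. Raising dim values to a bound also shrinks folds. The parts of this ranking, of the bound and of the low signal in the direction and the low share of these counts were not tested.

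**Figure D5:**
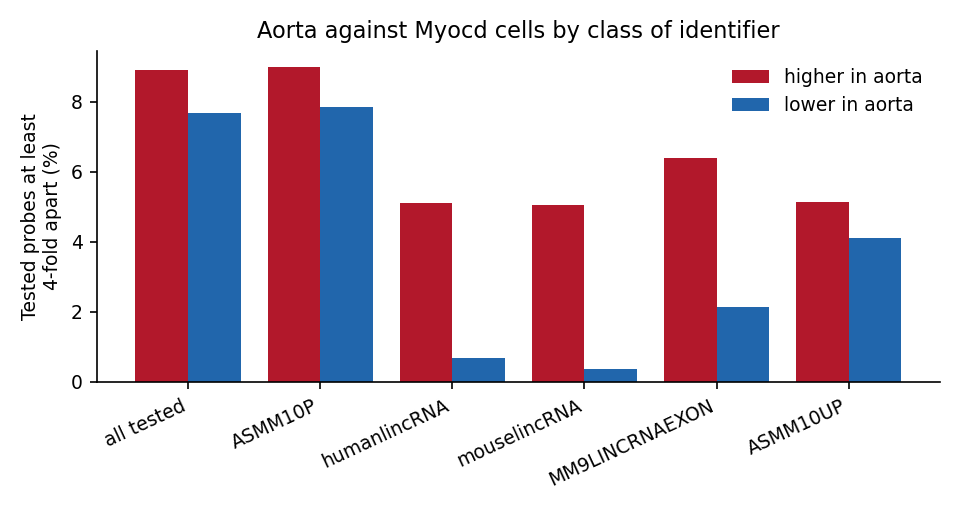
Percentage of tested probes at least 4-fold higher (red) or lower (blue) in aorta than on both Myocd arrays, for all tested probes and for 5 classes of identifier; bars are shares of probes on these 3 arrays and carry no error. Over all tested probes the bars are 8.9% and 7.67%; for humanlincRNA they are 5.1% and 0.665%, and for mouselincRNA 5.05% and 0.361%.

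The lincRNA identifiers give a locus number and a strand, so that strand use could be read for loci with a probe on each strand; this was looked at after the first results were seen. Of 547 such humanlincRNA loci, at least 1 strand was well above background at 335 (61.2%) in aorta and at 320 (58.5%) and 311 (56.9%) on the Myocd arrays. Of 317 mouselincRNA loci the counts were 209 (65.9%) in aorta and 202 (63.7%) and 198 (62.5%) on the Myocd arrays. A strand seen on both Myocd arrays was mostly seen in aorta too, as held for tested probes at large. Of all tested probes well above background on both Myocd arrays, 37372 were so in aorta and 2608 were not. At 192 humanlincRNA loci both Myocd arrays had the same single strand above background, and in aorta 162 of these had that strand alone, 19 had both strands, 10 had neither and 1 had only the opposite strand. At 129 mouselincRNA loci of this kind the aorta had the same strand alone at 113, both strands at 7, neither at 8 and only the opposite strand at 1. Loci silent on both Myocd arrays at this signal level numbered 204 and 103, and 36 and 21 of them had a strand above background in aorta. Conversely, 14 and 11 loci seen on both Myocd arrays were not above background on either strand in aorta. These counts follow the unlike rules given above for probes, so their gap does not show which side held more loci. Over all tested probes, 3170 (7.11%) were above background in aorta and on neither Myocd array, and 2608 (5.85%) the other way. Those are shares of tested probes and not of silent ones. Whether the lincRNA loci differ from probes at large was therefore not tested.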

How the data were processed

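Spot intensity was extracted by the authors with Agilent Feature Extraction 11.0.1.1, per the file headers; the processed intensity is corrected for background and for spatial trends but not scaled between arrays. Per the labels, RNA was labelled along whole transcripts by random priming. A deposited table holds the authors' own log2 values of 42995 probes (column medians 7.27 for the cultures, 7.21 for aorta and 7.16 for liver; Pearson's r with the scanner values 0.997 to 1 across probes, same direction); its normalization, centring and build are not given in the sources used here, it holds none of the 15 named genes, and it served as an alternative.

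Outlier spots were left out, spots of a probe were averaged as log2, and each array's 75th percentile was subtracted. For fold counts and distances, a probe on a dim array took the higher of its own value and the lowest level well above background; limma used the measured levels. Probes well above background in aorta or on both Myocd arrays entered, and 15 negative controls were left out. limma 3.58.1 (lmFit, eBayes, two-sided) in R 4.3.3 used 7 arrays with 3 residual degrees of freedom, without liver; it was tested on simulated data. Normexp (offset 50) used median spot signals. All identified genes are named; for other probes, the 2 with the largest difference each way among those well above background on all 3 arrays. The members and lists were chosen with earlier results of these data known. Of 5 gene lists, only those of reference genes and of SRF targets held identified genes (13 of 16 and 1 of 8); contractile, matrix and proliferation genes were not identified. The number of arrays limits the precision. The array design is on mm9, so probes carry no coordinates here. Alternatives were other scalings, filters, folds, fits and leaving out each array.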

Additional observations from a re-analysis of the deposited data

Results flagged for a closer look

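The control spots outside the comparison were read by a rule added after the data were seen: most of a sequence's spots well above background on an aorta or Myocd array, with a mean level above both empty-virus wild-type arrays. Of 9 control sequences, 4 met it. The Agilent control (+)E1A_r60_a107 averaged 0.00 in aorta with 35 of 35 spots well above background, against -6.69 and -6.70 on the Myocd arrays, -7.04 and -6.95 on the wild-type arrays and -5.30 in liver. The control (+)E1A_r60_3 averaged -3.51 in aorta (33 of 35 spots), -4.89 and -5.05 with Myocd and -4.61 and -4.86 in wild-type cells, and it was higher still in liver at -1.51. On the Myocd arrays the control DCP_20_7 averaged -2.96 and -2.79 against -5.00 in aorta. DCP_20_9 averaged -2.91 and -2.95 on the Myocd arrays against -4.80 in aorta. These DCP sequences have 2 spots each on an array. No array was left out or rescaled for these spots.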

How the results depend on the processing

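The count of 7392 probes at least 4-fold apart became 4544 after normexp, 17723 at 2-fold and 3161 at 8-fold, and 4518 of the 4544 were among the 7392. The 81 such probes in the 4 minor identifier classes became 27 after normexp and 51 over probes well above background on all 3 arrays. The mean distance from aorta, 0.85 for Myocd and 0.92 for wild-type arrays, became 0.79 and 0.83 with quantile normalization, 0.59 and 0.64 after normexp, 0.78 and 0.82 in the authors' table, 0.81 and 0.88 with no filter on dim probes and 0.79 and 0.87 over probes well above background on all 3 arrays; the wild-type value was 0.91 with median scaling. The cause of these shifts was not tested. The sign turned for Ldhal6b (-0.09 with quantile normalization, -0.07 with median scaling) and G6pd2 (0.05 with quantile normalization), neither of them called.

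Leaving out 1 array gave 7972 to 8168 probes at least 4-fold apart, 20400 to 28943 limma calls against 25249, and 10 to 13 called genes of the 15 against 11. The other limma counts stayed within 1.5 times the main one. The 4 probes named by identifier kept direction and call in all 13 distinct alternatives each, although quantile normalization and the authors' table gave them the same differences. They were chosen for the largest differences on these arrays, so this says little about other probes. Of the 180 pairs of a gene and a distinct alternative, 166 kept direction and side of the threshold. Alternatives with identical fits were counted once: adding liver changed nothing in the fit of aorta and Myocd alone, and leaving out either array of the wild-type or of the knockout pair gave 1 fit. A fit of the aorta and Myocd arrays alone called 27809 probes with 1 residual degree of freedom. Replicate differences correlated at -0.22, -0.055 and 0.073 between groups. With so few arrays this cannot settle whether replicate numbers pair the cultures. With the replicate block 22203 probes were called, of which 21843 were among the 25249, and 11 genes.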
